A study of Mus musculus with 21 samples.

Results

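The neurogenin, NeuroD and Atoh1 genes encode proneural basic helix-loop-helix (bHLH) transcription factors, and 8 of them, Neurog1, Neurog2, Neurog3, Neurod1, Neurod2, Neurod4, Neurod6 and Atoh1, were followed through directed motor neuron (MN) differentiation of mouse embryonic stem cells. They were chosen by name, and all 8 are among the 55400 genes of the table. Each of 7 groups held 3 libraries of polyA RNA from wild-type C57BL/6 cells that had been grown on fibroblast feeders, formed into embryoid bodies and exposed to retinoic acid at 1 µM and SAG, a Sonic hedgehog agonist, at 0.5 µM. DAPT, a γ-secretase inhibitor that blocks Notch signaling, was supplied at 5 µM from day 4, which directs the cultures to the hypaxial motor column. By the authors' methods, the medium was replaced at day 5 with one lacking retinoic acid and SAG, again with DAPT. The last day of the D6 and D6+GSKJ4 groups was therefore spent without either, which cannot be told apart from the step from D5 to D6. The untreated groups were collected at day 4 (D4), 8 h later (D4H8), at day 5 (D5) and at day 6 (D6). The D4H8+GSKJ4, D5+GSKJ4 and D6+GSKJ4 groups had also received GSKJ4, an inhibitor of the Kdm6 histone H3K27 demethylases, for the 1 day before collection. These exposures were separate windows, so D5+GSKJ4 was not D4H8+GSKJ4 grown on, and D4 had no treated counterpart. Whether D4 cells were collected before DAPT was added is not given in the sources used here.

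Proneural bHLH proteins pair with E proteins and bind E-boxes in DNA. Neurogenins start the neuronal program in dividing progenitors, raise Notch ligands such as Dll1, and switch on NeuroD genes, which carry differentiation forward after cell cycle exit. Hes and Hey proteins, the effectors of Notch, repress proneural genes, and Id proteins take up E proteins without binding DNA. In the ventral spinal cord Neurog2 acts beside Olig2 in motor neuron progenitors, whereas Atoh1 marks the most dorsal progenitors, Neurod2 and Neurod6 are best known from forebrain neurons, and Neurog3 is the endocrine factor of the pancreas that is also found in the ventral spinal cord.

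The sequence before the transcription start is shown for the 4 genes that rose together from D4 to D4H8. The windows come from the RefSeq promoter table of GRCm38.p6 (mm10), each read on the strand of its gene, and stop where an annotated exon begins. Capitals mark every match, on either strand, to the E-box CANNTG or to the Hes-bound N-box CACNAG. The Neurog1 window is chr13:56252181-56252430 (minus strand), Neurog2 is chr3:127632886-127633134 (plus), Neurod4 is chr10:130280255-130280504 (minus) and Neurod1, where an exon left only 101 bases, is chr2:79456786-79456886 (minus).
Neurog1: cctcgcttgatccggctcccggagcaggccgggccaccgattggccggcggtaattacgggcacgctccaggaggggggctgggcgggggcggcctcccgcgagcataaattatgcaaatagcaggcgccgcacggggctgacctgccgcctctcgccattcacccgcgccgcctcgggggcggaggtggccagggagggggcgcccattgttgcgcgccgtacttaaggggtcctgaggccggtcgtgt
Neurog2: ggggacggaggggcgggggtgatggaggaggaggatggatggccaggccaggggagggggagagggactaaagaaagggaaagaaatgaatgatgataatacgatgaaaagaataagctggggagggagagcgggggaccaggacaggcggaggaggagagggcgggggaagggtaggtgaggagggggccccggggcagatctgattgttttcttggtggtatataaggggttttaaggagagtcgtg
Neurod4: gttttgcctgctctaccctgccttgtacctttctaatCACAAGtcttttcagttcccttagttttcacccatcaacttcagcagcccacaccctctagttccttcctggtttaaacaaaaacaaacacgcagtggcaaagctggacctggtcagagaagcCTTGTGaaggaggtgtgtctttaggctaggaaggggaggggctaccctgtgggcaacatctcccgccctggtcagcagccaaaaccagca
Neurod1: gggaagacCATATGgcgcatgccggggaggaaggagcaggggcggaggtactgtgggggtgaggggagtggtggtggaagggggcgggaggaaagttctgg
Neurog1 and Neurog2 held neither motif, the Neurod4 window shown held 2 N-box matches and no E-box, and Neurod1 held 1 E-box match. A second RefSeq start of Neurod4 gave a window of 148 bases, chr10:130280241-130280388 (minus), with 1 N-box match and no E-box. Among 32817 RefSeq promoters cut to 250 bases, 66.2% held CANNTG and 36.7% held CACNAG, and among those cut to 101 bases 36.5% held CANNTG. A match is a match of letters, not a bound site.

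The libraries held 14982115 to 34383842 counts, the deepest being D4H8 replicate 1. Among the treated libraries a pair stood apart from their replicates: D4H8+GSKJ4 replicate 2, with 7.28% of its counts in its top 10 genes against 3.54% and 4.34%, and D5+GSKJ4 replicate 2, in which 39381 genes had no count against 31023 and 31326. The labels call all samples differentiated motor neurons. Of 8 motor neuron markers (Mnx1, Isl1, Isl2, Lhx3, Lhx4, Chat, Slc18a3, Slc5a7), 3 averaged at least 1 FPKM at D4, 7 at D4H8 and at D5, and 8 at D6, so the label holds for the late stages and goes beyond what the D4 libraries show. Their summed level rose from 7.71 to 19.6 FPKM at D4 to 443 to 512 FPKM at D6. Pluripotency markers were present in every library (11.3 to 285 FPKM summed). In such mixed cultures fewer cells of a type and less RNA per cell cannot be told apart.

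Levels are given in FPKM, read counts scaled to the exon length of the gene and to the counted reads of the library, which allows comparison between genes. Folds and tests come from the read counts (edgeR's quasi-likelihood test, adjusted p under 0.05 over all tested genes taken as a call). Of the 8 genes, 5 reached a mean of 1 FPKM in some group. The other 3 were at the floor throughout, and none passed the filter on low counts. Neurod6 had 0 counts in all 21 libraries, Neurod2 had 4 counts in 3 libraries and Atoh1 had 3 counts in 3 libraries. A count of 0 still allows up to 3 counts per library, which is at most 0.0637 FPKM for Neurod2, 0.0931 FPKM for Neurod6 and 0.0944 FPKM for Atoh1, for counting error only. The dorsal dI1 markers that accompany Atoh1 in the embryo (Barhl1, Barhl2, Lhx2, Lhx9) were likewise low, with a summed level of at most 1.59 FPKM in any library.

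**Figure D1:**
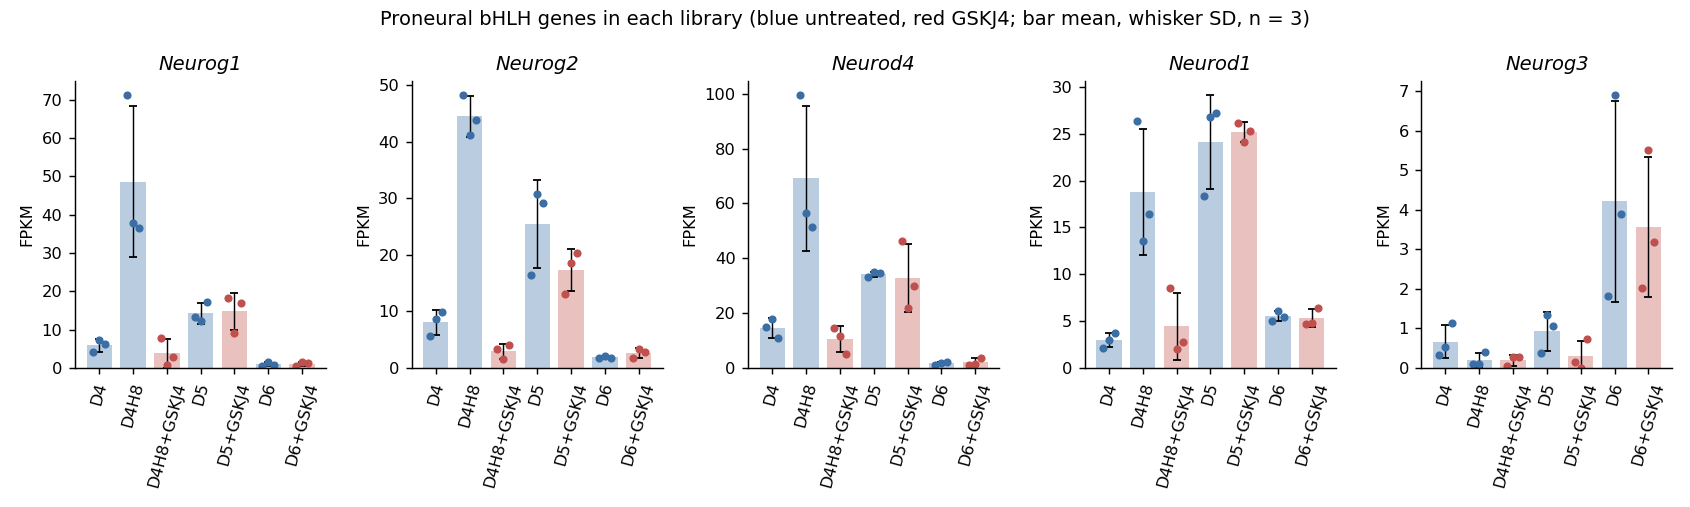
FPKM of the 5 detected genes (1 panel each, own vertical axis) in the 7 groups on the horizontal axis, untreated in blue and GSKJ4 in red; points are libraries, bars means and whiskers SD (n = 3). Neurog1, Neurog2 and Neurod4 stood highest at D4H8 and low in D4H8+GSKJ4, Neurod1 was highest at D5 and D5+GSKJ4, and Neurog3 was highest at D6.

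The family as a whole passed through a short peak at D4H8. Summed over the 8 genes, the level was 32.3 ± 5.26 FPKM (SD, n = 3) at D4, 181 ± 55.9 FPKM at D4H8, 98.9 ± 15.1 FPKM at D5 and 14.4 ± 4.08 FPKM at D6. The make-up of the sum shifted as well. Neurog1 and Neurog2 together made up 51.9% ± 2.85 of it at D4H8, 39.9% ± 2.96 at D5 and 20.96% ± 2.29 at D6. Neurog3 made up 0.901% ± 0.394 at D5 and 27.4% ± 9.80 at D6, and Neurod1 with Neurod4 made up 59.2% ± 3.27 and 51.7% ± 8.76. Neurod4 stood above Neurod1 by a ratio of FPKM of 5.22 ± 2.04 at D4 and 3.70 ± 0.534 at D4H8, but 0.302 ± 0.0761 at D6, where the order of the pair was turned round in all 3 libraries.

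**Figure D2:**
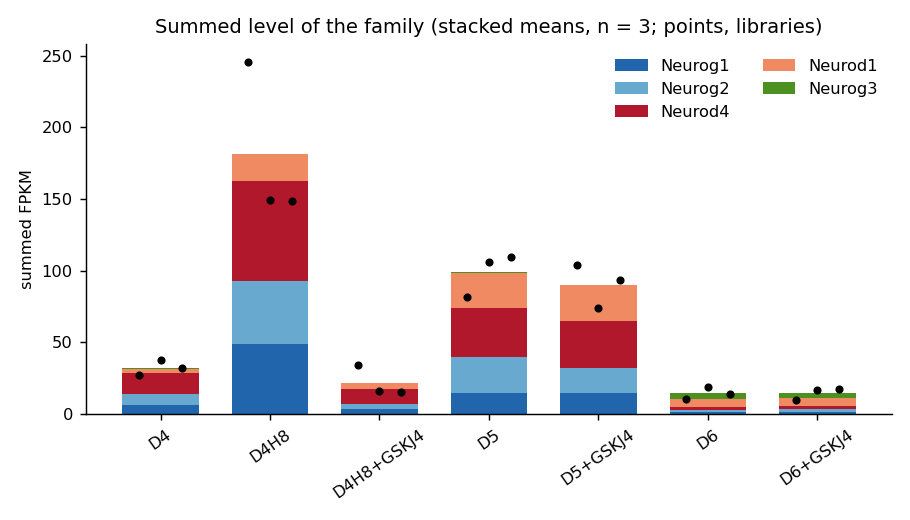
Summed FPKM of the family (vertical axis) in the 7 groups; stacked bars are the mean of each of the 5 detected genes (n = 3) and points are the sums of single libraries. The untreated sum went from 32.3 at D4 to 181 at D4H8 and 14.4 at D6, and D4H8+GSKJ4 stood at 21.9.

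The first question was how each gene moved from progenitors to young neurons. Neurog1, the neurogenin best known from sensory and ventral progenitors, stood at 4.15, 7.39 and 6.25 FPKM in the D4 libraries, 71.3, 37.9 and 36.6 FPKM at D4H8, 13.4, 12.2 and 17.3 FPKM at D5 and 0.65, 1.71 and 0.87 FPKM at D6. No library of one stage overlapped those of the next. Of all tested genes, 15.2% were so separated upward from D4 to D4H8, and 20.9% and 24.1% downward over the next steps, in TMM-scaled CPM. From D4H8 to D5 the log2 fold change of Neurog1 was -1.78 ± 0.30 (SE; adjusted p = 0.00057 by edgeR), and from D5 to D6 it was -3.61 ± 0.36 (adjusted p = 9.6e-06). D4H8 replicate 1, the deepest library, was the highest of its group for Neurog1, Neurog2, Neurod4 and Neurod1.

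Neurog2, the main neurogenin of motor neuron progenitors, followed the same course with a smaller spread at its peak. It stood at 5.63, 8.67 and 9.96 FPKM at D4, 48.3, 41.2 and 43.8 FPKM at D4H8, 16.5, 30.8 and 29.1 FPKM at D5 and 1.79, 2.17 and 1.78 FPKM at D6. Again the stages did not overlap. It rose by a log2 fold change of 2.43 ± 0.21 within 8 h (edgeR adjusted p = 2.6e-05), fell by 0.81 on the log2 scale to D5 (SE 0.20, adjusted p = 0.0086) and then by 3.61 to D6 (SE 0.24, adjusted p = 4.5e-07). The level at D6 was below that at D4, by a log2 fold change of -1.99 ± 0.23 (adjusted p = 4.8e-06).

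Neurod4, a NeuroD factor that is induced by neurogenins, was the most abundant member at D4, D4H8 and D5. Its D4 libraries stood at 14.8, 18.03 and 10.98 FPKM, those of D4H8 at 99.6, 56.7 and 51.5 FPKM, those of D5 at 33.0, 34.9 and 34.6 FPKM and those of D6 at 1.19, 1.73 and 2.12 FPKM. The stages were again fully separated. Its rise to D4H8 was 2.20 ± 0.26 on the log2 scale (edgeR adjusted p = 0.00015), and its drop from D5 to D6, -4.24 ± 0.30 (adjusted p = 7.1e-07), had the largest point estimate of the 4 falling genes.

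Neurod1, which acts in cells leaving the cycle, stayed high for longer. It stood at 2.18, 3.04 and 3.77 FPKM at D4, 26.4, 13.5 and 16.4 FPKM at D4H8, 18.3, 26.8 and 27.3 FPKM at D5 and 5.01, 6.10 and 5.49 FPKM at D6. D4H8 and D5 overlapped, and the other steps did not. It rose by 2.63 ± 0.26 on the log2 scale to D4H8 (edgeR adjusted p = 3.6e-05), the change from D4H8 to D5 was 0.35 (95% interval -0.15 to 0.85, adjusted p = 0.303; without D4H8 replicate 1 it was 0.71 and called, adjusted p = 0.021), and it fell by 2.01 to D6 (SE 0.25, adjusted p = 4.6e-05). Unlike Neurog1, Neurog2 and Neurod4, it remained above its D4 level at D6, with a log2 fold change of 0.97 ± 0.25 (adjusted p = 0.0041). Its exons overlap those of Cerkl on the same strand, and Cerkl did not exceed 0.79 FPKM in any library.

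Neurog3 moved the other way, at a low level. Its libraries held 0.34, 0.52 and 1.14 FPKM at D4, 0.10, 0.11 and 0.40 FPKM at D4H8, 0.39, 1.33 and 1.06 FPKM at D5 and 1.83, 6.90 and 3.89 FPKM at D6. D6 lay above every earlier library, with a wide spread of its own (from D5 to D6, 23.5% of all tested genes were separated upward). It rose from D4H8 to D5 by 2.29 ± 0.69 on the log2 scale (edgeR adjusted p = 0.023) and from D5 to D6 by 2.28 ± 0.57 (adjusted p = 0.0071), while the change from D4 to D4H8 was -1.82 ± 0.70 (adjusted p = 0.195). The first of these calls was lost without D4H8 replicate 1 or 2 or D5 replicate 2 or 3 (adjusted p = 0.059 to 0.102), and the second held without any single library. Neurog3 passed the filter on low counts in fits holding a D5 or D6 group, not in those of D4 or D4H8 with D4H8+GSKJ4. It thus entered the untreated fit through groups in which it was higher. Without the filter both calls held, and the fall from D4 to D4H8 was called as well (edgeR adjusted p = 0.0079). The call from D4H8 to D5 was also lost in 1 fit over all 21 libraries. Its exons overlap those of Fam241b on the opposite strand, which reached 3.89 FPKM, and the counting strand is not stated, so the 2 genes may share reads. Endoderm markers, counted because Neurog3 is an endocrine factor, had a summed level of 4.60 to 5.41 FPKM at D4, 4.90 to 6.12 FPKM at D5 and 6.31 to 10.6 FPKM at D6. Of 3 tested, 2 were called higher and 1 lower from D5 to D6, and likewise from D4 to D6, over which Neurog3 rose. Over all tested genes 19.2% were called higher and 15.1% lower from D5 to D6, and 32.9% and 31.0% from D4 to D6. Pdx1 had at most 3 counts in each library; their part in the Neurog3 values was not tested.

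Counted over the family, 4 of the 5 tested members were called higher from D4 to D4H8 and none lower, where 4.06% of all tested genes were called higher and 0.32% lower. From D4H8 to D5 3 were called lower and 1 higher, beside 10.5% and 17.2% of all tested genes. From D5 to D6 4 were called lower and 1 higher, beside 15.1% and 19.2%. From D4 to D6 3 were called lower and 2 higher, beside 31.0% and 32.9%, so this longest span separated the members little from the background of calls. The later counts include Neurog3 among those called higher, with the limit of its filter given above. The median log2 fold change of the tested members was 2.43, -0.81 and -3.61 over the 3 steps, against -0.02, 0.01 and -0.02 over all tested genes.

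The second question was what GSKJ4 did to the family at each stage. At D4H8 the 4 members that rose in untreated cells were all lower in the treated libraries, and no treated library reached the lowest untreated one, a separation that 17.1% of all tested genes showed. This comparison uses the same D4H8 libraries as the rise from D4. Neurog1 was at 7.87, 0.73 and 2.83 FPKM under GSKJ4 and Neurog2 at 3.34, 1.52 and 4.03 FPKM. Neurod4 was at 14.5, 11.8 and 5.16 FPKM and Neurod1 at 8.59, 1.99 and 2.82 FPKM. Treated replicate 1 was the highest for Neurog1, Neurod4 and Neurod1, and treated replicate 2 the lowest for Neurog1, Neurog2 and Neurod1.

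Neurog2 had the lowest adjusted p, a log2 fold change of -3.97 ± 0.31 (edgeR adjusted p = 0.0027), which is 15.7-fold lower. Neurod4 fell by 2.75 (SE 0.42, adjusted p = 0.019) and Neurod1 by 2.14 (SE 0.50, adjusted p = 0.049). With Neurog1, 4 of the 4 tested members were called lower, where 1.85% of all tested genes were called lower and 2.11% higher, and the median log2 fold change was -3.25 against 0.02 over all tested genes. The Neurog2 call held when any of the 6 libraries was left out, whereas the others depended on single libraries. Without D4H8 replicate 1 or replicate 3 only Neurog2 was called, without D4H8 replicate 2 or D4H8+GSKJ4 replicate 3 Neurog2 and Neurod4 were called, and without D4H8+GSKJ4 replicate 2 3 members were called.

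Neurog3 was too low in these libraries to be tested. The summed family level was 21.9 ± 10.8 FPKM under GSKJ4, against 181 ± 55.9 FPKM without it. Several marker lists moved along with the family at this stage, at which edgeR called 1.85% of all tested genes lower and 2.11% higher. DESeq2 called more, 838 of 31166 genes lower and 1136 higher. The neural progenitor markers (Sox1, Sox2, Pax6, Nes, Olig2, Nkx6-1) summed to 58.5 to 118 FPKM in treated and 224 to 303 FPKM in untreated libraries, with 2 of 6 called lower by edgeR and 4 by DESeq2. The motor neuron markers summed to 12.6 to 28.9 FPKM against 57.9 to 62.7 FPKM, with 3 of 7 tested called lower by edgeR and 5 by DESeq2. The p3 and V3 markers Nkx2-2, Nkx2-9 and Sim1 summed to 9.33 to 34.1 FPKM against 86.0 to 150 FPKM, with 1 of 2 tested called lower by edgeR and 1 by DESeq2. Pluripotency and fibroblast markers overlapped between the groups, with none called in 11 tests by edgeR and none by DESeq2 (2 fibroblast markers had an unadjusted p under 0.05). Of 6 markers of neurons of any kind none was called by edgeR (2 at an unadjusted p under 0.05, and DESeq2 called 1 lower), 1 of 1 tested dI1 marker was called higher (1.33) and so was 1 of 2 tested markers of oligodendrocyte precursors, with summed levels of at most 1.59 and 1.09 FPKM. The part of these shifts in the fall of the proneural genes was not tested.

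At D5 and D6 none of the 5 tested members was called with GSKJ4 by edgeR or by DESeq2. At D5 1 of 5 had an unadjusted p under 0.05 and at D6 none had, and over all tested genes edgeR called 0.00613% at D5 and 0.0% at D6. With replicate number as a block, edgeR called 48 genes higher and 209 lower at D6, and still no member. At D5 Neurog2 was at 13.1, 18.5 and 20.3 FPKM under GSKJ4, overlapping the untreated libraries, with a log2 fold change of -0.60 (95% interval -1.15 to -0.06, unadjusted p = 0.034, edgeR adjusted p = 0.976). Neurod1 stood at 26.2, 24.1 and 25.3 FPKM, with an interval of -0.37 to 0.42. The intervals of Neurog1, -0.61 to 0.65, and Neurod4, -0.66 to 0.47, did not reach the size of the change seen at D4H8. At D6 the intervals were -1.20 to 1.25 for Neurog1, -0.20 to 1.12 for Neurog2, -0.71 to 1.38 for Neurod4 and -0.46 to 0.32 for Neurod1. Neurog3 was poorly measured, with intervals of -4.35 to 1.04 at D5 and -1.44 to 0.95 at D6. The motor neuron markers summed to 152 to 182 FPKM at D5 under GSKJ4 against 243 to 292 FPKM, and 0 of 8 were called by edgeR (median log2 fold change -0.66), though 6 had an unadjusted p under 0.05 and DESeq2 called 4 lower.

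**Figure D3:**
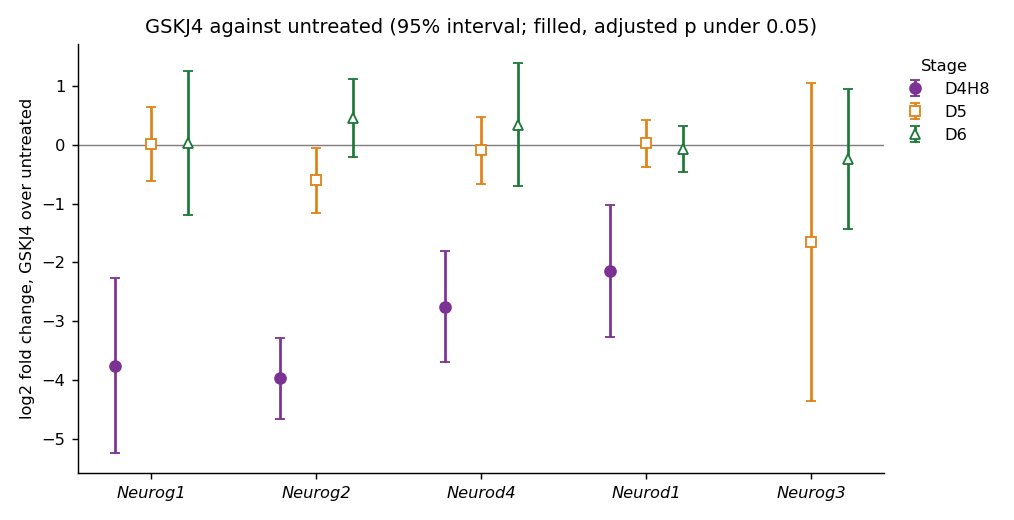
Log2 fold change of GSKJ4 over untreated (vertical axis) for the 5 detected genes at D4H8, D5 and D6, with 95% intervals (edgeR, 3 libraries against 3); filled symbols have an adjusted p under 0.05. The 4 filled points are all at D4H8, between -3.97 and -2.14, and Neurog3 was not tested at that stage.

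The difference between stages was tested as an interaction. The GSKJ4 effect on Neurog2 was higher at D5 than at D4H8 by 3.36 ± 0.39 on the log2 scale (edgeR adjusted p = 0.0016) and higher at D6 than at D4H8 by 4.45 ± 0.42 (adjusted p = 5.6e-05). For Neurog1 the differences were 3.77 ± 0.77 (adjusted p = 0.0498) and 3.79 ± 0.86 (adjusted p = 0.0485). For Neurod4 the D6 difference of 3.11 ± 0.63 was called (adjusted p = 0.026) and the D5 difference of 2.66 ± 0.59 was not (adjusted p = 0.081). For Neurod1 neither was called, at 2.16 ± 0.52 (adjusted p = 0.123) and 2.08 ± 0.53 (adjusted p = 0.08). Thus 2 of 5 tested members differed between D5 and D4H8 and 3 of 5 between D6 and D4H8, where 0.232% and 0.552% of all tested genes were called higher. Without any of 10 of the 12 libraries in turn, the D5 count was 1, Neurog2, and the D6 count was 1 without any of 5 of them, where Neurog1 was called in 2 and Neurod4 in 7 of the 12 fits. DESeq2 called 4 members in both. Between D6 and D5 edgeR and DESeq2 called none (0.0% of all tested genes by edgeR), and 1 of 5 had an unadjusted p under 0.05.

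Treated D4H8 cells were also set against untreated D4, the earlier stage. Neurog2 lay below its D4 libraries in all 3 treated ones, as 14.0% of all tested genes did, with a log2 fold change of -1.56 ± 0.34 (edgeR adjusted p = 0.044), and this 1 of 4 tested members compares with 1.02% of all tested genes called lower. The call was lost without any 1 of the 3 D4 libraries and without D4H8+GSKJ4 replicate 1. For Neurog1, Neurod4 and Neurod1 the intervals included 0, at -2.08 to 0.56, -1.37 to 0.22 and -0.56 to 1.49. From D4H8+GSKJ4 to D5+GSKJ4, which are cultures from separate exposures, Neurog2 rose by 2.54 ± 0.35 on the log2 scale (adjusted p = 0.0007), Neurod1 by 2.49 ± 0.44 (adjusted p = 0.0032) and Neurod4 by 1.61 ± 0.48 (adjusted p = 0.046), beside 9.59% of all tested genes called higher and 4.65% lower. The Neurod4 call was lost without any 1 of 4 of the 6 libraries. From D5+GSKJ4 to D6+GSKJ4 4 members were called lower and Neurog3 higher, beside 4.7% and 7.24% of all tested genes. Neurog3 rose by 3.67 ± 1.06 (edgeR adjusted p = 0.044), a call lost without D5+GSKJ4 replicate 1 or any 1 of the D6+GSKJ4 libraries. The limit of its filter given above holds for this call too.

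Ordered by mean level over the 7 groups, Neurog1 ran from D4H8 (48.6 ± 19.7 FPKM) through D5+GSKJ4 (14.8 ± 4.88) and D5 (14.3 ± 2.69), which overlapped, to D4 (5.93 ± 1.64), D4H8+GSKJ4 (3.81 ± 3.67), D6+GSKJ4 (1.11 ± 0.583) and D6 (1.08 ± 0.559), where each neighbour overlapped the next. Neurog2 ran from D4H8 (44.4 ± 3.58 FPKM) through D5 (25.4 ± 7.79) and D5+GSKJ4 (17.3 ± 3.72), which overlapped, to D4 (8.09 ± 2.22), and then to D4H8+GSKJ4 (2.96 ± 1.30), D6+GSKJ4 (2.66 ± 0.876) and D6 (1.91 ± 0.222), which overlapped. Neurod4 kept a gap that Neurog2 did not, since D4H8+GSKJ4 (10.5 ± 4.81 FPKM) lay above both D6 groups without overlap. For Neurod1 the top 3 groups D5+GSKJ4 (25.2 ± 1.04 FPKM), D5 (24.1 ± 5.04) and D4H8 (18.8 ± 6.76) overlapped in order, and so did the lower 4. For Neurog3 only the step from the D6 groups (4.21 ± 2.55 and 3.57 ± 1.77 FPKM) down to D5 (0.927 ± 0.484) was free of overlap.

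The partners and inhibitors of the family were followed as lists. The E proteins Tcf3, Tcf12 and Tcf4, with which proneural proteins dimerise, had 0 of 3 called from D4 to D4H8, where all 3 had an adjusted p of at least 0.0968 by edgeR and DESeq2 called 1 higher, and 0 of 3 with GSKJ4 at D4H8, where none had an unadjusted p under 0.05 and DESeq2 called none. From D5 to D6 3 of 3 fell, beside 15.1% of all tested genes, Tcf3 by 0.54 on the log2 scale from a mean of 58.2 to 36.9 FPKM. The Id inhibitors were not called in the first 8 h or with GSKJ4 at D4H8 (0 of 4 each by edgeR and by DESeq2, with 2 and 0 at an unadjusted p under 0.05). From D4H8 to D5 Id3 fell by 2.18 (SE 0.19, edgeR adjusted p = 1.6e-06) and Id1 by 1.76 (SE 0.27), while Id4 rose by 4.42 ± 0.32 (adjusted p = 4.5e-07), from 0.51, 0.45 and 0.52 FPKM to 13.5, 10.4 and 7.71 FPKM. Id4 thus increased over the step at which Neurog1, Neurog2 and Neurod4 went down.

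Among the Notch effectors, 5 of the 6 Hes and Hey genes were tested. Hes5 was at 4.94, 10.9 and 13.7 FPKM at D4 and 15.9, 6.91 and 4.99 FPKM at D4H8, which overlapped, and then at 0.38, 0.66 and 0.60 FPKM at D5 (log2 fold change -4.09 ± 0.50, edgeR adjusted p = 3.6e-05). Under GSKJ4 at D4H8 it was at 1.62, 0.43 and 0.42 FPKM, a log2 fold change of -3.56 ± 0.63 (edgeR adjusted p = 0.025), and Hey2 fell by 3.53 (SE 0.37, adjusted p = 0.0036). Hey2 was low, with a mean of 0.628 FPKM over the 21 libraries. Hes5 and Hey2 were thus lower in the same treated libraries in which Neurog1 and Neurog2 were low. They were 2 of 5 tested genes by edgeR, with none called higher and a median of -1.59. Over all tested genes edgeR called 1.85% lower and 2.11% higher. DESeq2 called 3 genes of the list lower and none higher. Hes1, the most abundant of the list, was at a mean of 17.0 FPKM with GSKJ4 and 17.5 FPKM without (adjusted p = 0.845).

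Of 14 other neural bHLH genes 10 were tested from D4 to D4H8 and 7 rose, with none lower, beside 4.06% of all tested genes called higher and 0.32% lower, and their median log2 fold change was 1.48 against -0.02. Olig2, the progenitor factor of motor neurons, rose by 1.01 on the log2 scale (SE 0.27, edgeR adjusted p = 0.048), Nhlh1 by 2.50 (SE 0.26) and Nhlh2 by 3.11 (SE 0.32). Nhlh2 and Bhlhe23 peaked later than Neurog2, since Nhlh2 had means of 15.9 FPKM at D4H8 and 70.3 FPKM at D5 and Bhlhe23 of 1.16 and 34.9 FPKM. With GSKJ4 at D4H8 edgeR called 2 of 9 tested lower and none higher, beside 1.85% of all tested genes called lower and 2.11% higher. DESeq2 called 4 of the list lower and none higher. The 2 called by edgeR were Olig2, with a log2 fold change of -3.91 ± 0.51 (edgeR adjusted p = 0.01), and Olig1, with -4.12 ± 0.41 (adjusted p = 0.003).

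The 19 genes known to act downstream of neurogenins and NeuroD factors were all tested. From D4 to D4H8 17 rose and none fell, beside 4.06% of all tested genes called higher and 0.32% lower. The median log2 fold change was 2.39 against -0.02 over all tested genes. Gadd45g, a growth-arrest gene, went from a mean of 28.0 to 150 FPKM, Insm1, a zinc finger factor of newborn neurons, from 5.74 to 46.8 FPKM, and Hes6, an antagonist of Hes1, from 14.8 to 51.6 FPKM. With GSKJ4 at D4H8 edgeR called 6 of 19 lower and none higher, with a median of -1.21, beside 1.85% of all tested genes called lower and 2.11% higher. By edgeR 11 of 19 had an unadjusted p under 0.05. DESeq2 called 9 of the list lower and none higher, beside 838 of 31166 genes lower and 1136 higher. The 6 called by edgeR were Dll1, Dll4, Hes6, Mfng, Ebf2 and Srrm4, of which all but Hes6 are named because they were called. Dll1, the Notch ligand, was at 7.05, 1.23 and 2.72 FPKM with GSKJ4 and 43.8, 28.3 and 33.8 FPKM without (log2 fold change -3.34 ± 0.52, edgeR adjusted p = 0.019).

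Not every downstream gene was lower. Dcx, a microtubule protein of migrating neurons, was at 8.74, 6.95 and 2.26 FPKM with GSKJ4 and 7.91, 5.60 and 3.59 FPKM without, a log2 fold change of 0.04 (edgeR adjusted p = 0.966). Against untreated D4 it was higher in the treated cells by 3.33 on the log2 scale (adjusted p = 0.013), as was Stmn2, another neuronal microtubule regulator, by 2.20 (adjusted p = 0.034), 2 of 19 genes with none lower, where 1.08% of all tested genes were called higher. Gadd45g was lower in each treated library (37.0, 2.24 and 31.8 FPKM) than in any untreated one, but its log2 fold change of -2.75 ± 0.70 was not called (adjusted p = 0.059). Whether the response of Dcx differs from that of Dll1 was not tested.

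**Figure D4:**
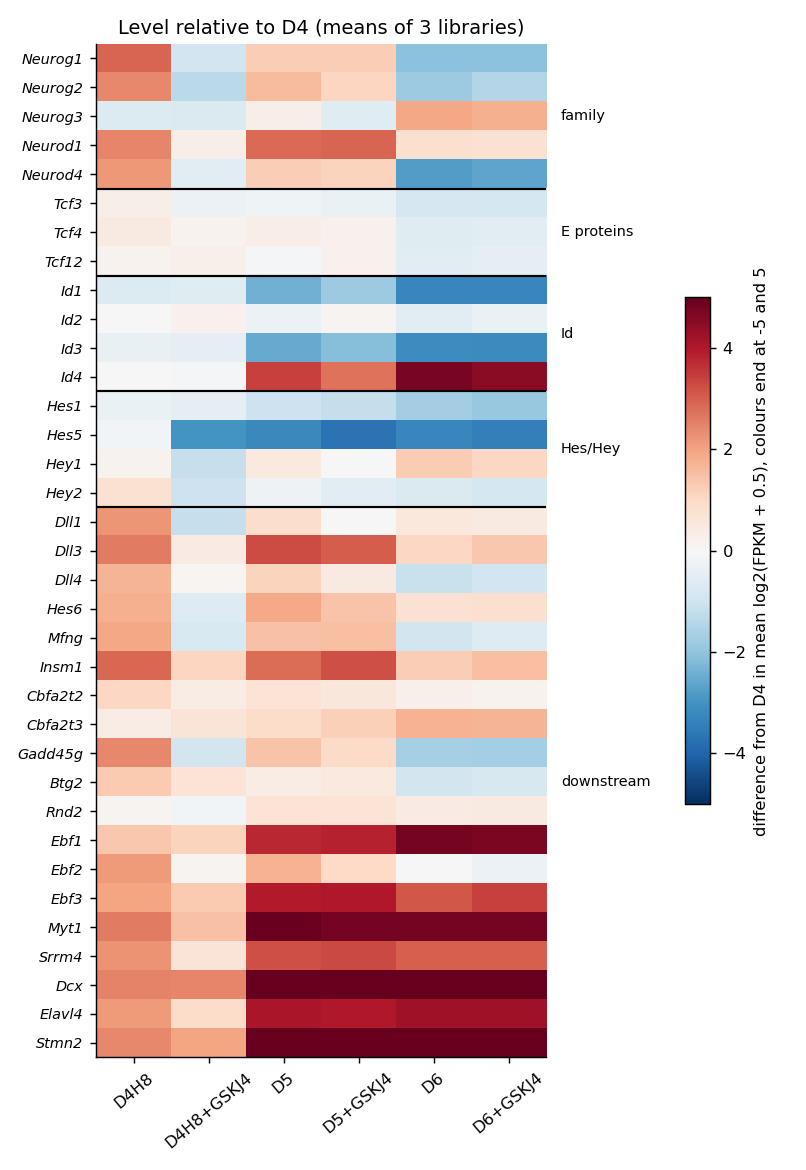
Difference from D4 in mean log2(FPKM + 0.5) (colour, red higher and blue lower, n = 3 per group) for the 6 later groups (columns) and for genes that averaged at least 1 FPKM in some group (rows: the family, E proteins, Id, Hes and Hey, downstream genes). The strong red of Neurog1, Neurog2, Neurod1 and Neurod4 at D4H8 is absent from D4H8+GSKJ4, while Dcx and Stmn2 were red in both; Id4 turned red from D5 on.

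Over the 21 libraries the gene with the pattern most like Neurog1 was Btbd17 (Pearson r = 0.961 of log2 CPM), followed by Gadd45g (0.952) and Rasl11b (0.949). For Neurog2 they were Neurog1 (0.947), Mfng (0.942) and Btbd17 (0.934). For Neurod1 they were Rhbdl3 (0.966), Dll3 (0.959) and Fam110a (0.950), for Neurod4 Olfml3 (0.951), Zbtb18 (0.948) and Sp8 (0.948), and for Neurog3 Etv4 (0.897), Cdo1 (0.890) and Vsnl1 (0.888). Within the family, Neurod4 followed Neurog1 (0.921) and Neurog2 (0.880) more closely than it followed Neurod1 (0.621), and Neurog3 ran against Neurod4 (-0.716). These values describe 21 libraries that share 7 groups, among 14783 genes, and carry no test.

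The targets of the inhibitor were present throughout. Kdm6b had means of 24.6 FPKM at D4H8 and 29.6 FPKM at D4H8+GSKJ4 (log2 fold change 0.22 ± 0.22, edgeR adjusted p = 0.545), and Kdm6a had 8.91 and 9.18 FPKM (adjusted p = 0.962). Kdm6b transcripts rose by 1.28 ± 0.16 on the log2 scale from D4 to D6 (adjusted p = 7.2e-06), a course unlike that of Neurog1 and Neurog2, which were lower at D6 than at D4. GSKJ4 acts on the protein, so transcript levels do not measure inhibition, and reads of Kdm6b cannot be told from those of its antisense neighbour Kdm6bos without strand.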

How the data were processed

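RNA-seq of 21 libraries was analysed, and replicates are separate biological replicates per the labels. By the authors' methods, Fastp trimmed the reads, Hisat2 placed them on mm10 and HTSeq-count gave the counts per gene, with the strand setting not given in the sources used here. They deposited raw counts and FPKM (counts scaled to exon length and to the counted reads of the library, rounded to 2 decimals; recomputed values differed by at most 0.005). No 2 libraries of the same group were duplicates by a chi-square comparison of counts, and pairs across groups were not compared. Of 55400 gene IDs, 55140 matched a symbol in GENCODE.

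Counts were tested with edgeR 4.0.16 in R 4.3.3 (quasi-likelihood test, TMM scaling, filterByExpr at a minimum count of 10, Benjamini-Hochberg over all tested genes, called under 0.05). Fits used the groups compared: the 4 untreated groups, each treated and untreated pair, D4 with D4H8+GSKJ4, the 3 treated groups, and the 6 groups of D4H8 to D6 for interactions. DESeq2 1.42.0, which the authors used, was an alternative, beside RLE and upper-quartile scaling, no filter, 1 fit over 21 libraries, a replicate block and leaving out each library. Only the fits of the untreated groups, of GSKJ4 at D4H8 and of the interactions were run on simulated counts. Those counts varied less between replicates than the libraries of the GSKJ4 and interaction fits. The simulation therefore does not show how well those fits recover a change. Likeness was Pearson's r of log2 CPM (prior count 2) over 21 libraries, for members with at least 1 FPKM in a group, naming the 3 highest genes that have a symbol and are not predicted genes.

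The members and lists were chosen with earlier results of these data known. All members were named, and from each list up to 6 genes of highest mean FPKM, of which 1 is not reported here; Dll1, Dll4, Mfng, Ebf2 and Srrm4 were named after their values were seen. The labels give replicate numbers but no pairing. Same-number correlations of log2 CPM deviations were 0.663, 0.316 and 0.446 for D6 with D6+GSKJ4. They were lower for D4H8 with D5 (0.314, 0.147 and 0.136), D5 with D6 (0.31, 0.144 and 0.226) and D4H8 with D6 (0.4, 0.143 and 0.19). Libraries of different number were not correlated, so these values cannot settle which groups were paired. Reads of overlapping genes (Rnd2, Dll4, Ebf3, Hes5, Olig1, Srrm4, Kdm6b) are uncertain.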

Additional observations from a re-analysis of the deposited data

Results flagged for a closer look

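The effect of GSKJ4 differed between stages by the test of the difference itself for 3 genes. For Neurog1 the log2 fold change under GSKJ4 was higher at D5 than at D4H8 by 3.77, and higher at D6 than at D4H8 by 3.79. For Neurog2 it was higher by 3.36 at D5 and by 4.45 at D6. For Neurod4 it was higher by 3.11 at D6. All 5 differences rest on the same D4H8 and D4H8+GSKJ4 libraries. Neurog2 was called in each of the 12 fits that left out 1 library, for both stages, whereas the adjusted p of Neurog1, 0.0498 and 0.0485 by edgeR, lay at the threshold.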

How the results depend on the processing

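The calls of the members in the untreated course from D4 to D4H8, D5 to D6 and D4 to D6 did not change in number with a library left out, at 4, 5 and 5 members. Without a filter on low counts 5 were called from D4 to D4H8, the added gene being Neurog3, which was called lower. From D4H8 to D5 4 members were called, 2 in 1 fit over all 21 libraries (Neurog1 and Neurog2), and 3 to 4 when a library was left out. GSKJ4 at D4H8 gave 4 members, and 1 to 4 with a library left out. D4H8+GSKJ4 against D4 gave 1, and 0 to 1. D4H8 to D5 under GSKJ4 gave 3, and 2 to 4, and D5 to D6 under GSKJ4 gave 5, and 4 to 5. The stage difference at D5 against D4H8 gave 2 members, and 4 by DESeq2, 4 with no filter on low counts, and 1 to 4 with a library left out. That at D6 against D4H8 gave 3, and 1 to 4. The number of all genes called, the background of these counts, moved more. For GSKJ4 at D4H8 it was 644, and 1974 by DESeq2, 2287 with no filter, 2048 in 1 fit over 21 libraries, 43 without D4H8 replicate 1 and 1746 without D4H8+GSKJ4 replicate 2. At D5 it was 1, and 69 by DESeq2 and 128 with no filter. For D5 against D4H8 it was 45, and 236 and 351, and for D6 against D4H8 133, and 580 and 626. For D4H8+GSKJ4 against D4 it was 340, and 1692 and 1870, and 11 without D4 replicate 2. From D4 to D4H8 it was 767, and 350 without D4H8 replicate 1.

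With replicate numbers as a block 4 members were called for the D5 against D4H8 difference in place of 2, adding Neurod1 (adjusted p = 0.037) and Neurod4 (adjusted p = 0.04), and 4 in place of 3 at D6, adding Neurod1 (adjusted p = 0.029). The block lost Neurod4 from D4H8 to D5 under GSKJ4 (adjusted p = 0.07) and changed no other call of a member. Of all genes it called 2274 for GSKJ4 at D4H8 and 257 at D6, in place of 644 and 0. Same-number correlations of treated with untreated libraries were 0.44, 0.0731 and 0.255 at D4H8 and 0.223, 0.0384 and 0.209 at D5. Among the treated groups they ran from -0.0111 to 0.276. These values were not uniformly lower than those of D4H8 with D5 given above, so a pairing is neither shown nor excluded.

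Sign changes were seen in 36 alternative values of 13 results, none of which was called in either fit. With a library left out the log2 fold change ranged, for GSKJ4 at D5, from -0.19 to 0.28 (Neurog1), -0.13 to 0.10 (Neurod1) and -0.47 to 0.14 (Neurod4). At D6 it ranged from -0.33 to 0.51 (Neurog1), -0.68 to 0.31 (Neurog3), -0.21 to 0.0068 (Neurod1) and -0.32 to 0.63 (Neurod4). For D6 against D5 it ranged from -0.33 to 0.51 (Neurog1), -0.21 to 0.060 (Neurod1) and -0.21 to 0.85 (Neurod4). Neurog3 ranged from -0.99 to 0.34 for D6 against D4H8 and from -1.15 to 1.16 for D4H8 to D5 under GSKJ4, and Neurod1 from -0.41 to 0.80 for D4H8+GSKJ4 against D4. Neurog1 was at -0.035 at D5 with the replicate block, and for D6 against D5 at -0.0083 by DESeq2, -0.0084 with RLE scaling and -0.0025 in 1 fit over 21 libraries. The cause of these changes was not tested. Of 56 FPKM levels, 55 moved by less than 1 SD as TMM-scaled CPM per kilobase. Of 15 genes named as most alike, 5 remained by Spearman's rho and 7 over the 7 group means.

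With 3 libraries a group, the p-values weigh a difference between groups against the spread between replicate cultures. An interval around 0 does not show that GSKJ4 had no effect at D5 or D6.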
